A study of Homo sapiens with 6 samples.

Results

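The genes described here encode proteins of the tight junction, the seal that closes the space between neighbouring epithelial cells. They are 9 of the 58735 genes in the deposited table, taken by gene name: the claudins CLDN1, CLDN3, CLDN4, CLDN6, CLDN7 and CLDN12, occludin (OCLN), and the scaffold proteins TJP1 and TJP3. RNA-seq was done on Ishikawa cells, a human endometrial cancer line, 48 hours after lipofection with an siRNA against TCF19 (siTCF19, 3 libraries) or with a negative control siRNA (siNC, 3 libraries). The labels name no siRNA sequence and no separate cultures behind the replicate numbers, so all libraries stem from 1 line, and p-values cover only how far these libraries vary, which could be technical variation alone. No other allele or drug is named for either group.

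Claudins are small proteins that span the membrane several times and pair across the gap between cells, and the mix of claudins a cell makes sets which ions and solutes can pass between cells. Occludin is a second kind of membrane protein in the same strands. The scaffold proteins ZO-1 (from TJP1) and ZO-3 (from TJP3) bind the tails of most claudins from inside the cell and tie the strands to actin. In glandular epithelium such as that of the endometrium, tight junctions separate the apical from the basolateral side of the cell.

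Libraries held 14680022 to 16244705 counts, of which the 9 genes took 10013 to 11735. TCF19 itself, the target of the siRNA, had 675, 529 and 606 counts in siTCF19 libraries, against 2572, 2905 and 2756 in siNC libraries. The knockdown was thus seen in every siTCF19 library (log2 fold change -2.20 ± 0.06 (SE), edgeR adjusted p = 6.15e-29). All 10 epithelial markers were expressed above the filter on low counts and summed to 2906 to 3030 CPM in siTCF19 libraries and 3051 to 3176 CPM in siNC libraries, where CPM is the usual depth-scaled count, here with TMM-scaled library sizes. A few abundant genes weigh most in these sums: KRT8 averaged 666 CPM in siTCF19 and 881 CPM in siNC, while CDH1 averaged 304 and 199 CPM. The markers moved both ways: CDH1, MUC1, KRT19 and ESRP2 were called higher (log2 fold changes of 0.61, 0.70, 0.44 and 0.41), KRT8 and KRT18 lower (-0.40 and -0.43). The called share was 60%, beside 41.5% of all tested genes, and 4 markers were not called. Among these 4 was the epithelial adhesion gene EPCAM, at 493 ± 14.01 CPM in siTCF19 and 506 ± 4.35 CPM in siNC (SD, n = 3 each). Of the 8 stromal markers, the collagen genes COL1A1 (26.7 and 17.9 CPM) and COL1A2 (101 and 161 CPM in siTCF19 and siNC) were expressed, while the defining stromal gene DCN was at 0 counts throughout. The rest were low, averaging 1.40 and 1.05 CPM for THY1, 0.439 and 0.0886 CPM for PDGFRA and 0.0648 and 0.279 CPM for PDGFRB. COL3A1 and LUM had 0 or 1 count per library. The 8 stromal markers summed to 127 to 136 CPM in siTCF19 libraries and 178 to 181 CPM in siNC libraries, and the part of other cells in the results was not tested. The 6 endothelial markers summed to 14.05 to 17.3 CPM in siTCF19 and 6.62 to 6.99 CPM in siNC libraries, a difference set by VWF (15.5 and 5.13 CPM), with EMCN at 0 counts. CDH5 went the other way, at 0.259 CPM in siTCF19 and 0.978 CPM in siNC (log2 fold change -1.89, edgeR adjusted p = 0.00216). It passed the filter only through its siNC libraries (12, 14 and 19 counts, against 5, 4 and 3 in siTCF19). Its lower call is thus not independent of that filter. PECAM1, not tested, was at 0.108 CPM in siTCF19 and 0.627 CPM in siNC. The 6 leukocyte markers summed to 0.380 to 0.645 CPM in siTCF19 and 0.550 to 2.31 CPM in siNC.

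Counts were tested with edgeR's quasi-likelihood test across all 17299 genes that passed a filter on low counts, and the threshold for a call was an adjusted p (Benjamini-Hochberg over all these genes) under 0.05. Of the 9 genes, 8 passed the filter, and CLDN6 did not. CLDN1, CLDN7 and TJP3 were lower in siTCF19, OCLN, TJP1 and CLDN3 were higher, and CLDN4 and CLDN12 were not called. These 6 of 8 stand beside 41.5% of all tested genes, 20.7% called higher and 20.8% called lower. Among the 5236 tested genes with a mean level in the range of these 8, 36.0 to 160 CPM, 56.5% were called. The median log2 fold change of the 8 was 0.0058, against 0.00091 over all tested genes. In size the changes were small: 0 of the 8 reached 2-fold, a size that 4.85% of tested genes reached with a call. All 6 called genes changed by less than 1.5-fold, as did 71.6% of all called genes. In bulk RNA, fewer cells expressing a gene and less RNA of it per cell cannot be told apart.

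Promoter sequences of the claudins that moved in opposite directions are shown first, so that their letters can be set beside the values. They come from RefSeq on GRCh38.p14, whose table matched all 9 genes, and cover bases just before the annotated start. Capitals mark GGGCGG or its reverse complement CCGCCC (the GC box, bound by SP1) and CAGGTG or its reverse complement CACCTG (an E-box form that SNAI and ZEB repressors bind). Bases that GENCODE release 29 places in an exon of the gene were left out, except for the last 30 bases before the downstream CLDN7 start, which lie in an exon of another CLDN7 transcript.
CLDN1, minus strand, chr3:190322476-190322696: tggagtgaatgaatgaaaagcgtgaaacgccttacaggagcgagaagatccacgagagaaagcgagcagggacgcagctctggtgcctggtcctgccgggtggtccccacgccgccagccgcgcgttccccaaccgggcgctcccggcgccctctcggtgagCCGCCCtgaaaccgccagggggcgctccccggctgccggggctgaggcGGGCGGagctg
CLDN3, minus strand, chr7:73770271-73770520: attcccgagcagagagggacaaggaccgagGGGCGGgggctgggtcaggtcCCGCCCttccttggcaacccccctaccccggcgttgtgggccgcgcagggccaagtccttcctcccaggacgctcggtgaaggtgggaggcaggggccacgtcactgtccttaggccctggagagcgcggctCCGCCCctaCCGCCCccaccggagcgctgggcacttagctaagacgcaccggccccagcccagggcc
CLDN7, minus strand, chr17:7262479-7262508: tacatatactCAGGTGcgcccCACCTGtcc

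Over 250 bases before the start, both strands searched, the downstream CLDN7 promoter held 4 matches to CAGGTG, 2 of them in the stretch printed above, while its upstream promoter and the windows of the other claudins held 0. Both OCLN windows, 1 TJP1 window and 1 TJP3 window held 1 match each. At least 1 match was present in 17.49% of the 35116 promoters of the table, and 4 or more in 0.122%. The CLDN3 window held 4 matches to GGGCGG, a number reached in 7.632% of promoters. CLDN1 and CLDN6 held 2 each (2 or more in 24.342% of promoters), and CLDN4 held 1. The downstream CLDN7 window, the upstream OCLN window and both TJP3 windows held 1 each, and the TJP1 windows held 3, 2, 1 and 0. The other CLDN7 and OCLN windows and the CLDN12 window held 0. At least 1 GGGCGG stood in 42.64% of promoters. Neither TATAAA (in 10.72% of promoters) nor AACCGGTT, a Grainyhead-like site (in 0.12%), was found in a window of any of the 9 genes, and CCGGAA, an ETS site (in 14.53%), was found once, in CLDN7. These are matches of letters only, and no binding was measured.

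CLDN1 had the largest fold change of the 8 tested genes. Claudin 1 is needed for the skin barrier in mice, and its gene lies on chromosome 3 (190305701 to 190322475, minus strand, hg38, ENSG00000163347). CLDN1 had 704, 719 and 682 counts in siTCF19 libraries, against 985, 1094 and 989 in siNC libraries. As scaled levels these were 44.5, 48.0 and 44.0 CPM in siTCF19 and 67.7, 69.6 and 63.5 CPM in siNC, so the groups were well apart. Groups did not overlap in CPM for 5 of the 8 genes, beside 49.2% of all tested genes. CLDN1 was at 0.680 times its siNC level in siTCF19 (95% interval 0.621 to 0.744), or -0.56 ± 0.06 (SE) as a log2 fold change, and its adjusted p by edgeR was 1.95e-09. That change was larger in size than in 82.7% of the tested genes. It was called under all 16 alternatives in processing, with log2 fold changes of -0.59 to -0.50 and adjusted p of 1.15e-15 to 0.00026.

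CLDN7, a claudin found also along the basolateral membrane where it binds EpCAM, was lower as well (chromosome 17, 7259903 to 7263983, minus strand, ENSG00000181885). Its counts were 1773, 1602 and 1805 in siTCF19 and 1860, 2066 and 2140 in siNC. The scaled levels were 112.2, 107.0 and 116.4 CPM in siTCF19 and 127.8, 131.5 and 137.3 CPM in siNC. Every siTCF19 library lay below every siNC library. CLDN7 was at 0.846 times its siNC level (95% interval 0.786 to 0.910), which is -0.24 ± 0.05 (SE) in log2 terms (edgeR adjusted p = 0.000207). The call was made under all 16 alternatives, with adjusted p of 5.06e-05 to 0.00601. CLDN7 shares 10.79% of its exon bases with AC003688.1, a gene on the same strand with 0 counts in every library, and 38 bases with ELP5 on the other strand.

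CLDN3 and CLDN4 are neighbours on chromosome 7, with 29271 bases between them, and both proteins are receptors for an enterotoxin of Clostridium perfringens. CLDN3 (73768997 to 73770270, minus strand, ENSG00000165215) had 1691, 1485 and 1623 counts in siTCF19 and 1211, 1605 and 1452 in siNC. Its levels were 107.0, 99.2 and 104.6 CPM in siTCF19, against 83.2, 102.2 and 93.2 CPM in siNC. The groups overlapped, since siNC replicate 2 lay above siTCF19 replicate 2. CLDN3 was called higher, at 1.12 times (95% interval 1.03 to 1.21) and 0.16 ± 0.06 (SE) as a log2 fold change, and its adjusted p by edgeR was 0.0319. The call was made under 10 of 16 alternatives. Without siNC replicate 1, the lowest library, the log2 fold change was 0.09 (adjusted p = 0.314), and it was not called without siTCF19 replicate 1 (0.118) or siNC replicate 3 (0.068).

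CLDN4 (73799542 to 73832693, plus strand, ENSG00000189143), the claudin with the most counts, had 2561, 2381 and 2550 in siTCF19 and 2199, 2699 and 2396 in siNC. In CPM it stood at 162.0, 159.0 and 164.4 in siTCF19 and at 151.1, 171.8 and 153.7 in siNC, with the siTCF19 values inside the siNC range. It was not called: its log2 fold change of 0.03 had a 95% interval, as a ratio, of 0.948 to 1.09 (edgeR adjusted p = 0.725). The FPKM ratio of CLDN4 to CLDN3 was 0.410, 0.434 and 0.426 in siTCF19 libraries and 0.492, 0.456 and 0.447 in siNC libraries. FPKM, the deposited value scaled for gene length and depth, allows levels of different genes to be set side by side. With 3 against 3 libraries, an exact two-sided permutation test of 1 such ratio cannot give a p below 0.1.

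CLDN12 encodes a claudin without the usual tail motif for ZO proteins. Its gene is on chromosome 7 as well (90383721 to 90513402, plus strand, ENSG00000157224). Counts were 589, 598 and 549 in siTCF19 and 552, 596 and 590 in siNC, or 37.3, 39.9 and 35.4 CPM against 37.9 CPM in each of the 3 siNC libraries. The siTCF19 libraries lay on both sides of the siNC value. The log2 fold change of -0.01 was not called (edgeR adjusted p = 0.895, ratio 0.9899 with a 95% interval of 0.894 to 1.10), and its sign was positive with library-size-only scaling. Of the 50-base words in CLDN12 transcripts, 12.59% also occur in transcripts of other genes, the most (4.22%) in its overlapping neighbour GTPBP10 on the same strand, so part of its count is uncertain.

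CLDN6, known as a claudin of embryonic tissue that some tumours express again, was close to absent (chromosome 16, 3014712 to 3020071, minus strand, ENSG00000184697). It had 1, 8 and 5 counts in siTCF19 libraries and 2, 3 and 3 in siNC libraries, close to the floor of 3 counts, or 0.190 to 0.206 CPM in these libraries. It did not enter the main test. Without a filter on low counts its log2 fold change was 0.77 ± 0.87 (SE), with an edgeR adjusted p of 0.612. CLDN6 shares 40 exon bases with TNFRSF12A on the other strand, a gene with 375 to 808 counts per library. Of the 50-base words in CLDN6 transcripts, 8.01% also occur in other genes, so the origin of its few counts is uncertain.

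**Figure D1:**
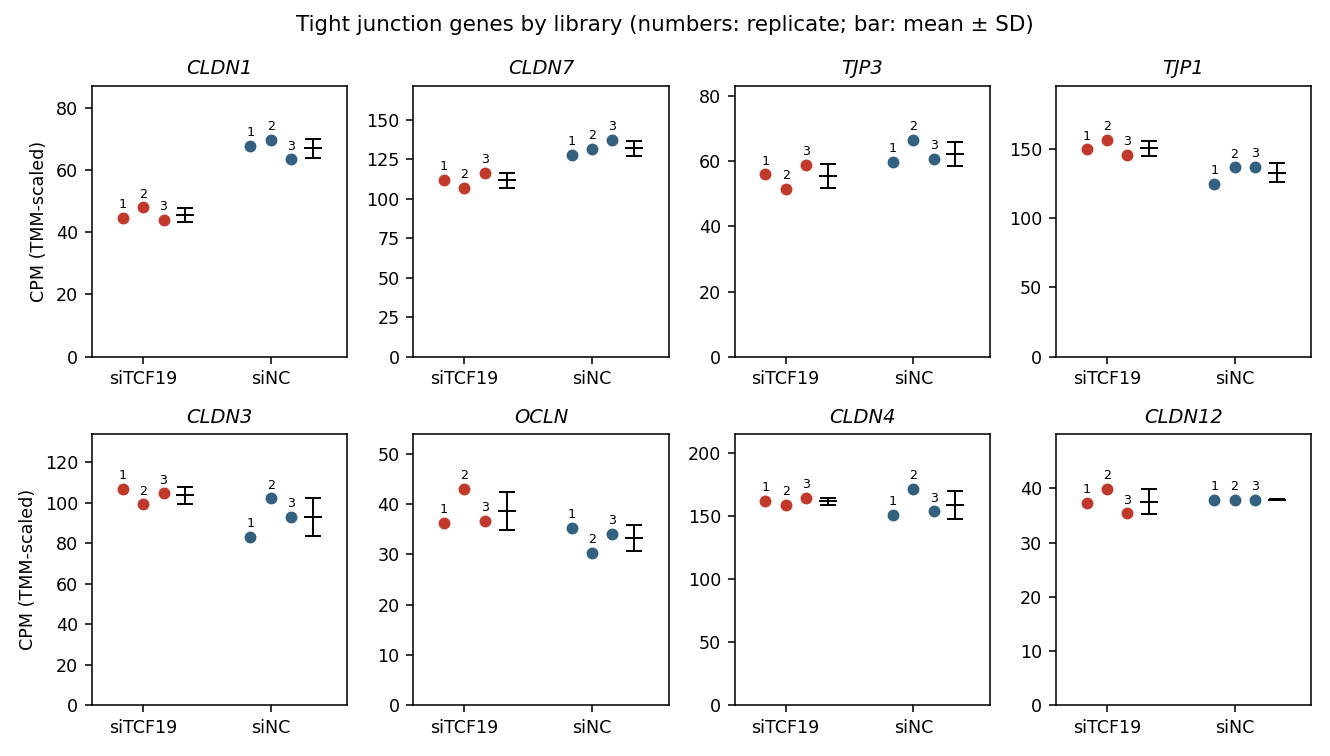
CPM (TMM-scaled, vertical axis from 0) of the 8 tested tight junction genes in each siTCF19 library (red, left) and each siNC library (blue, right), with the replicate number above each point and the mean ± SD (n = 3) at the right of each group. CLDN1, CLDN7, TJP3, TJP1 and OCLN show no overlap between groups, with the widest gap for CLDN1 (44.0 to 48.0 against 63.5 to 69.6 CPM).

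Occludin was somewhat higher in siTCF19. OCLN, on chromosome 5 (69492292 to 69558104, plus strand, ENSG00000197822), had 573, 645 and 568 counts in siTCF19 and 514, 477 and 531 in siNC. These were 36.3, 43.1 and 36.6 CPM in siTCF19 and 35.3, 30.4 and 34.1 CPM in siNC. The groups did not overlap, but the lowest siTCF19 and the highest siNC library were close, and siTCF19 replicate 2 stood above the other libraries. The ratio was 1.16 (95% interval 1.04 to 1.30), or 0.22 ± 0.08 (SE) as a log2 fold change, and the adjusted p by edgeR was 0.0256. OCLN was called under 11 of 16 alternatives, and not without siTCF19 replicate 2 (log2 fold change 0.14, adjusted p = 0.188) or siNC replicate 2 (0.16, adjusted p = 0.160). A pseudogene, OCLNP1, holds 7.79% of the 50-base words of OCLN transcripts and had 2 to 8 counts per library, so reads from that part of OCLN may be split or lost.

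The scaffolds TJP1 and TJP3 moved in opposite directions. TJP1 (chromosome 15, 29699367 to 29968865, minus strand, ENSG00000104067) had 2366, 2343 and 2259 counts in siTCF19 and 1820, 2150 and 2135 in siNC. Its levels were 149.7, 156.5 and 145.7 CPM in siTCF19, all above the 125.1, 136.8 and 137.0 CPM in siNC. TJP1 was at 1.13 times its siNC level (95% interval 1.05 to 1.22), which is 0.18 ± 0.05 (SE) in log2 terms (edgeR adjusted p = 0.0044). It was called under 15 of 16 alternatives, the exception being without siNC replicate 1 (log2 fold change 0.14, adjusted p = 0.0592).

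TJP3 (chromosome 19, 3708109 to 3750813, plus strand, ENSG00000105289) had 884, 773 and 915 counts in siTCF19 and 870, 1045 and 946 in siNC. Scaled, it stood at 55.9, 51.6 and 59.0 CPM in siTCF19 and at 59.8, 66.5 and 60.7 CPM in siNC. The highest siTCF19 library came within 1 CPM of the lowest siNC library. TJP3 was at 0.891 times its siNC level (95% interval 0.813 to 0.976), which is -0.17 ± 0.07 (SE) in log2 terms (edgeR adjusted p = 0.036). That call was made under 7 of 16 alternatives. It was not made without siTCF19 replicate 1 (adjusted p = 0.0864), siTCF19 replicate 2 (0.208), siNC replicate 2 (0.214) or siNC replicate 3 (0.0515), nor when scaled by library size alone (-0.11 in log2 terms, adjusted p = 0.189). The FPKM ratio of TJP1 to TJP3 was 1.002, 1.13 and 0.924 in siTCF19 libraries and 0.783, 0.770 and 0.845 in siNC libraries. Its groups had to stay apart, because each gene already kept them apart in opposite directions, so the ratio adds no evidence.

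In the authors' deposited table, which rests on the same libraries, CLDN1 (adjusted p = 8.96e-12), CLDN7 (0.000143) and TJP1 (0.00552) have an adjusted p under 0.05. The same deposited table lists CLDN3 (0.0846), OCLN (0.0881) and TJP3 (0.0968) above it, with log2 fold changes of 0.16, 0.22 and -0.17 there. With DESeq2, the adjusted p was 0.0611 for CLDN3, 0.0558 for OCLN and 0.0707 for TJP3, so that 1 gene was called higher and 2 lower. These 3 of 8 stand beside 36% of the 17298 genes given an adjusted p by DESeq2.

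**Figure D2:**
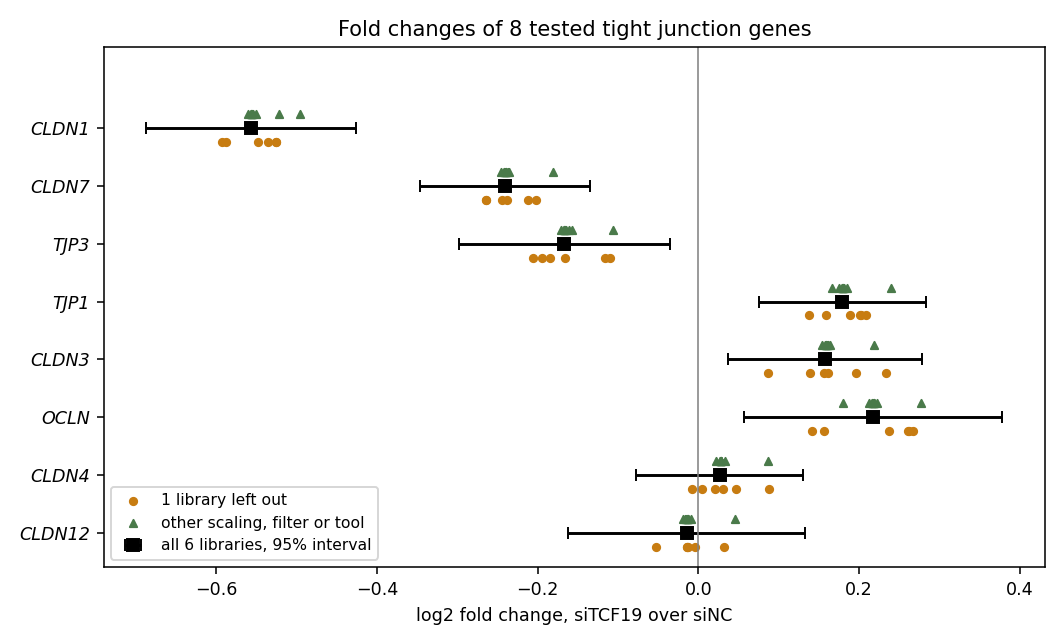
Log2 fold change (siTCF19 over siNC, horizontal axis) of the 8 tested tight junction genes: black squares with 95% intervals use all 6 libraries, orange points leave out 1 library each, and green triangles use another scaling, filter or tool. CLDN1 (-0.56) and CLDN7 (-0.24) lie below 0 in every run, while CLDN4 (0.03) and CLDN12 (-0.01) straddle 0.

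Set side by side per length, in FPKM, the order of the levels changed in its middle part. In siTCF19 libraries the order was CLDN3 (80.6 ± 3.46 FPKM), CLDN7 (44.5 ± 1.98), CLDN4 (34.1 ± 0.666), TJP1 (13.2 ± 0.445), TJP3 (13.0 ± 0.903), CLDN1 (12.3 ± 0.548), OCLN (5.66 ± 0.539), CLDN12 (5.52 ± 0.321) and CLDN6 (0.174 ± 0.134; SD, n = 3). In siNC libraries it was CLDN3 (72.2 ± 7.38 FPKM), CLDN7 (52.6 ± 1.75), CLDN4 (33.5 ± 2.42), CLDN1 (18.1 ± 0.906), TJP3 (14.7 ± 0.878), TJP1 (11.7 ± 0.585), CLDN12 (5.57 ± 0.0237), OCLN (4.87 ± 0.375) and CLDN6 (0.0989 ± 0.0177). CLDN1 thus stood below both scaffold genes in siTCF19 and above both in siNC, although in siTCF19 the ranges of TJP1, TJP3 and CLDN1 overlapped, as did those of OCLN and CLDN12. These levels use the length of all exons of a gene, which for CLDN4 is 4702 bases against 1274 bases for CLDN3, so a gene with long, little-used exons is set too low.

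Shares of the summed claudin transcripts were set side by side between the groups. The table lists 24 claudin genes, of which 5 (CLDN8, CLDN10, CLDN17, CLDN22 and CLDN25) had 0 counts in all libraries and 13 passed the filter. CLDN3 made up 43.8%, 42.3% and 42.9% of the summed claudin FPKM in siTCF19 libraries, against 35.5%, 38.8% and 37.2% in siNC libraries. CLDN7 made up 23.5%, 23.3% and 24.4% in siTCF19 and 27.9%, 25.6% and 28.04% in siNC. The share of CLDN1 was 6.35%, 7.12% and 6.27% in siTCF19 and 10.1%, 9.21% and 8.82% in siNC, and that of CLDN4 was 18.0%, 18.4% and 18.3% in siTCF19 and 17.5%, 17.7% and 16.6% in siNC. Each of these 4 shares kept the groups apart (exact two-sided permutation p = 0.1). That is the smallest p possible with 3 against 3 libraries, so the test cannot decide whether shares differed. In CPM, groups did not overlap for 49.2% of all tested genes. Shares of 1 sum do not vary independently, and CLDN4 itself was not called, its siTCF19 CPM lying inside the siNC range. The sum itself overlapped between groups, at 190.6, 181.7 and 189.6 FPKM in siTCF19 and 182.5, 205.0 and 194.1 FPKM in siNC.

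**Figure D3:**
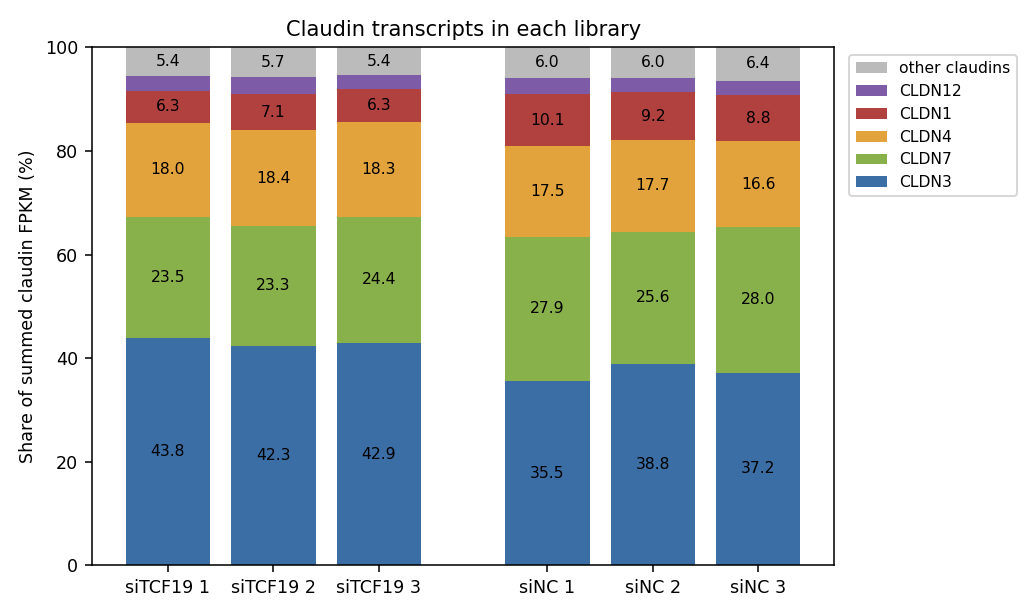
Share of the summed FPKM of 24 claudin genes (vertical axis, %) taken by CLDN3, CLDN7, CLDN4, CLDN1, CLDN12 and all other claudins in each siTCF19 library (left) and each siNC library (right). CLDN3 takes 42.3% to 43.8% in siTCF19 and 35.5% to 38.8% in siNC, and CLDN1 6.27% to 7.12% and 8.82% to 10.1%.

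Of the 18 other claudins, 8 were tested and 12.5% of these were called, beside 41.5% of all tested genes. CLDN2, which forms a paracellular channel for cations, was called lower, 7 were not called and 0 were higher (0 also at an unadjusted p under 0.05 and with DESeq2). CLDN2 was a low gene, at 0.863 ± 0.152 CPM in siTCF19 and 2.05 ± 0.753 CPM in siNC (SD, n = 3 each), a log2 difference of -1.25 ± 0.34 (SE; edgeR adjusted p = 0.00303). It was not called without siNC replicate 2 (log2 fold change -0.93, adjusted p = 0.0689). The highest of these 18 claudins was CLDN15, at 14.03 ± 0.757 CPM in siTCF19 and 16.2 ± 0.901 CPM in siNC, not called (edgeR adjusted p = 0.119). CLDN11 averaged 3.70 and 4.89 CPM, CLDN23 3.09 and 3.30 CPM, CLDN20 1.58 and 1.72 CPM, CLDN18 1.14 and 0.889 CPM, CLDN9 1.06 and 0.652 CPM and CLDN5 0.713 and 1.10 CPM in siTCF19 and siNC. CLDN14, CLDN16, CLDN19, CLDN24 and CLDN34 had 3 to 48 counts over all 6 libraries and were not tested.

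Of 11 other membrane proteins of tight junctions, 9 were tested: 4 were higher, 5 were not called and 0 were lower (2 lower at an unadjusted p under 0.05, 0 with DESeq2). The called share was 44.4%, beside 41.5% of all tested genes. CXADR, the receptor for coxsackievirus and adenovirus, stood at 178 ± 6.66 CPM in siTCF19 and 133 ± 5.79 CPM in siNC (log2 fold change 0.41 ± 0.05, edgeR adjusted p = 6.54e-09). ILDR1 (0.60) and LSR (0.20), angulins that mark the corners where 3 cells meet, and the Crumbs polarity gene CRB3 (0.27) were also higher on the log2 scale. LSR was not called without siTCF19 replicate 1 (adjusted p = 0.0509), nor CRB3 without siNC replicate 1 (0.0833), and neither was called by limma-trend on log2(FPKM + 1) (LSR 0.0651, CRB3 0.0615). Tricellulin (MARVELD2), at 70.3 and 77.3 CPM in siTCF19 and siNC, and the junctional adhesion molecule F11R, at 77.1 and 74.8 CPM, were not called (adjusted p = 0.0553 and 0.57).

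All 19 plaque and polarity genes were tested: 8 were higher, 7 lower and 4 not called (78.9% called, beside 41.5% of all tested genes). Among tested genes averaging 36.0 to 160 CPM, a range that not all 19 share, 56.5% were called. The Par complex genes PARD6A (26.6 ± 2.24 CPM in siTCF19 and 15.5 ± 0.908 CPM in siNC; log2 fold change 0.77) and PARD6B (0.45) were higher, as were the atypical protein kinase C genes PRKCI (0.25) and PRKCZ (0.33). Others of the same complex were lower, namely PARD6G, at 25.6 ± 1.95 CPM in siTCF19 and 33.6 ± 3.02 CPM in siNC (-0.39, edgeR adjusted p = 0.000206), and PARD3 (-0.21, adjusted p = 0.0162). The cingulin gene CGN, whose product binds ZO-1, was higher (0.33), and its relative CGNL1 was lower, at 2.45 ± 0.512 CPM in siTCF19 and 5.89 ± 0.920 CPM in siNC (-1.26). YBX3, a ZO-1 partner that also acts as a transcription factor, averaged 162 ± 7.76 CPM in siTCF19 and 224 ± 5.98 CPM in siNC (-0.46, edgeR adjusted p = 1.86e-10). ARHGEF2, a RhoA activator that cingulin holds at junctions, was lower too (-0.40). Over these 48 other tight junction genes, 36 tested, 12 were higher and 8 lower (55.6% called), with a median log2 fold change of 0.038.

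Adherens junctions and desmosomes, which hold cells together below the tight junction, moved in both directions as well. Of 23 such genes, 21 were tested, with 9 higher, 7 lower and 5 not called. Of those tested, 76.2% were called, beside 75% of the 8 tested tight junction genes first described and 41.5% of all tested genes. The called share was 56.5% among tested genes averaging 36.0 to 160 CPM, a range that not all 21 share. E-cadherin (CDH1) averaged 304 ± 1.497 CPM in siTCF19 and 199 ± 6.33 CPM in siNC (log2 fold change 0.61 ± 0.05, edgeR adjusted p = 1.17e-14). N-cadherin (CDH2), a low gene at 4.398 ± 0.685 CPM in siTCF19 and 1.53 ± 0.191 CPM in siNC, was higher too (1.52), as were NECTIN3 (0.51), NECTIN2 (0.32) and the catenin gene CTNNA1 (0.16), while NECTIN1 was lower (-0.69). Among desmosome genes, DSG2 (0.27) and JUP (0.19) were higher, and DSP (-0.47), PKP3 (-0.49), PPL (-0.23) and DSC3 (-0.45) were lower. DSC3 was not called without siTCF19 replicate 3 (adjusted p = 0.0514).

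**Figure D4:**
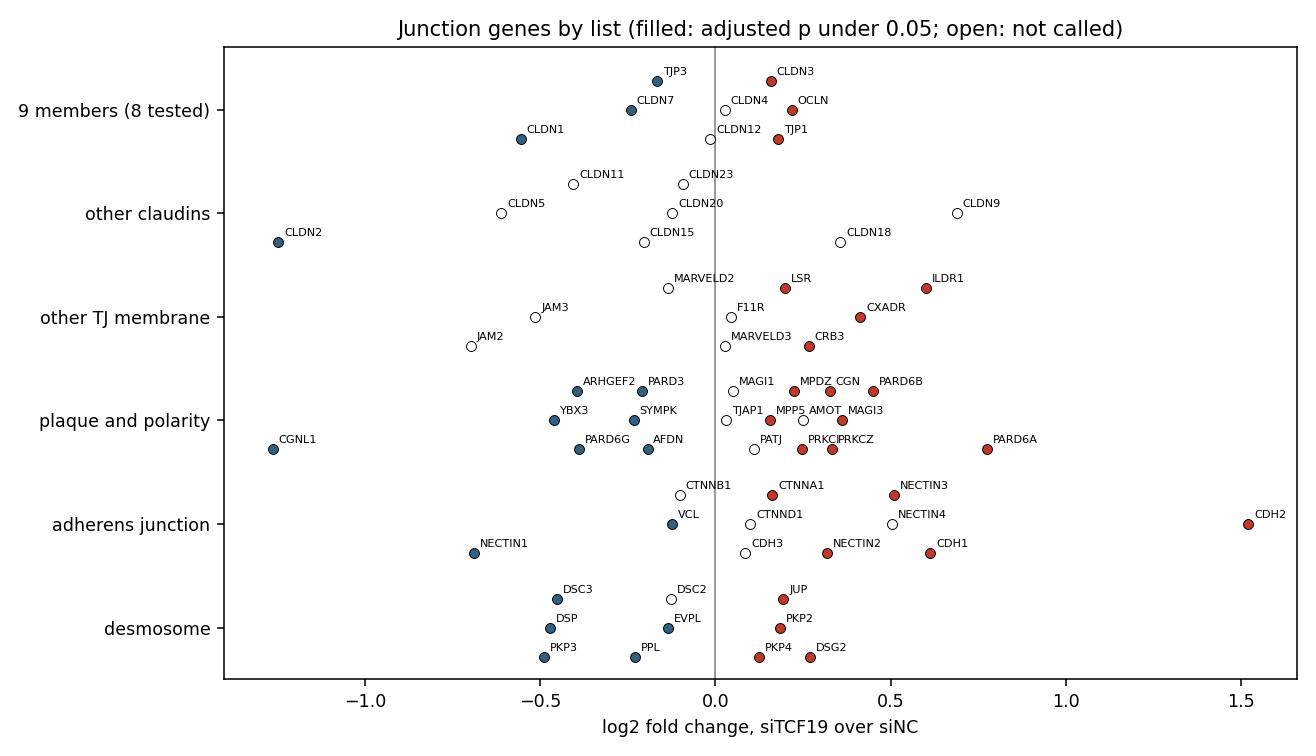
Log2 fold change (siTCF19 over siNC, horizontal axis) of every tested gene in 6 lists of junction genes (rows), filled red where called higher, filled blue where called lower and open where not called. Each row except the other claudins and the other tight junction (TJ) membrane proteins holds called genes on both sides of 0.

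Log2 CPM over the 6 libraries was correlated with that of CLDN1 for the 11786 other genes that averaged 5 CPM or more. A Pearson correlation of at least 0.99 was reached by 78 of them. The 3 closest were PNN, XK and PIGF, with correlations of 0.9993, 0.9989 and 0.9976. This describes 6 points that fall into 2 groups, shares depth and library preparation, and carries no test. PNN averaged 191 CPM in siTCF19 and 217 CPM in siNC, XK 24.5 and 35.1 CPM, and PIGF 11.2 and 18.5 CPM.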

How the data were processed

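RNA-seq was analysed from 3 siTCF19 and 3 siNC libraries. Per the submitters' processing notes, HISAT2 2.0.5 and featureCounts 1.5.0-p3 were used with hg38; no source used here gives the strand setting or how multi-mapping reads were treated. The authors deposited read counts and FPKM values per gene, per the file headers, beside group means as normalized signal and their own comparison as log2 fold changes and p-values, for which no source used here names a tool. Identifier, start and end of all 58735 genes equalled GENCODE release 29. Date-like symbols, 27 in all, were replaced through the identifier.

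Counts were filtered with filterByExpr, scaled by TMM and tested with edgeR 4.0.16 (glmQLFit, glmQLFTest; R 4.3.3), group as the only term, with p-values adjusted over all 17299 tested genes. These genes held 99.7% to 99.8% of each library's counts. Standard errors are the absolute log2 fold change over the root of the F statistic. Intervals and the floor of 3 counts cover only the errors named, since PCR copies cannot be recognised. The steps were tested on simulated data. No libraries agreed within counting noise (chi-square per degree of freedom 2.27 to 3.76 within groups).

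The 9 members and the 11 gene lists were chosen with earlier results of these data known. Named genes are the members, TCF19, up to 6 called genes of each list by lowest p, and all claudins with counts. The 3 genes most like CLDN1 by correlation of log2 CPM (0.5 added) are named too. MARVELD2 and F11R were named for their role. Marker genes, PARD3, PARD6G, PRKCI, PRKCZ, SP1, SNAI1, SNAI2 and ZEB2 were named after their values were seen. Alternatives were scaling by RLE, by upper quartile or by library size alone; no filter; at least 1 CPM in 3 libraries; DESeq2 1.42.0; limma-voom on counts (limma 3.58.1); limma-trend on log2(FPKM + 1); a block for the replicate number; a stricter threshold of 0.01; and leaving out each library. Exon overlaps and 50-base words were computed from GENCODE transcripts in Python 3.11.15 (pandas 2.3.3), and figures drawn with matplotlib 3.10.9. A further junction gene is not reported here.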

Additional observations from a re-analysis of the deposited data

How the results depend on the processing

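The number of tight junction genes called higher, 3 with all 6 libraries, was 1 with DESeq2, 1 with limma-trend on log2(FPKM + 1) and 1 at an adjusted p under 0.01, and 1 to 3 with a library left out, the lowest without siNC replicate 1. The number called lower stayed within 2 to 3. Over all 17299 tested genes, 3586 were called higher (20.7%) and 3597 lower (20.8%) in the main test. With DESeq2, 3095 were higher and 3136 lower, and with limma-trend 2961 and 3110. At an adjusted p under 0.01, 2696 were higher and 2763 lower. With a library left out, 3198 to 3470 were higher and 3087 to 3331 lower. CLDN1 and CLDN7 were called in all 16 alternatives. Signs turned only for genes that were not called: CLDN12 had a log2 fold change of 0.046 with library-size-only scaling and of -0.053 to 0.032 with a library left out, and CLDN4 of -0.0077 to 0.088 with a library left out, the negative value without siNC replicate 1. The cause was not tested. Library-size-only scaling called 4512 genes higher and 2842 lower, 61.35% higher against 49.92% with TMM, and moved the median log2 fold change to 0.061. The labels do not say whether replicate numbers pair the libraries. Same-numbered libraries had correlations of deviations from the group mean of 0.0204, -0.169 and -0.0308. These cannot settle it, since such deviations sum to 0 within a group. With the replicate block, 3433 genes were called higher and 3441 lower, and 3 tight junction genes higher and 2 lower, TJP3 having an adjusted p of 0.0512. Not every library correlated best with its own number. Depth limits what can be said of genes under 3 CPM, among them CLDN2, CLDN5, CLDN6, CLDN9, CLDN18 and CLDN20. KLF4 has no value with a minimum of 1 CPM in 3 libraries, which it did not reach.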

Other observations

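Transcription factors known to act on epithelial junction genes were read from a list of 20, of which 15 were tested. Of these, 4 were higher, 3 lower and 8 not called. The called share was 46.7%, beside 41.5% of all tested genes. ELF3, an epithelial ETS factor, averaged 77.04 ± 3.56 CPM in siTCF19 and 46.7 ± 1.599 CPM in siNC (SD, n = 3 each; log2 fold change 0.72, edgeR adjusted p = 8.81e-13), and TFAP2C was higher as well (0.52). ZEB1, a repressor of E-cadherin, averaged 2.14 ± 0.158 CPM in siTCF19 and 4.77 ± 0.313 CPM in siNC (-1.15, adjusted p = 1.8e-05). SP1 was lower too, at 165 ± 9.82 CPM in siTCF19 and 181 ± 2.52 CPM in siNC (-0.13, edgeR adjusted p = 0.0297). SNAI1 was not called (edgeR adjusted p = 0.172), SNAI2 had 0 counts throughout and ZEB2 had 0 or 1 count per library. OVOL1 (0.88), GRHL3 (0.70) and KLF4 (-1.74) were called at mean levels under 5 CPM. KLF4 passed the filter on low counts only through its siNC libraries (21, 15 and 11 counts, against 3, 10 and 1 in siTCF19). The lower call of KLF4 is thus not independent of that filter. GRHL3 was not called with DESeq2 (adjusted p = 0.0725), nor without siTCF19 replicate 2 (0.129), siNC replicate 1 (0.194) or siNC replicate 3 (0.0576). OVOL1 was not called without siTCF19 replicate 1 (0.108) or siNC replicate 1 (0.0719), nor KLF4 without siTCF19 replicate 1 (0.0529), siTCF19 replicate 3 (0.0715) or siNC replicate 1 (0.0712). By limma-trend on log2(FPKM + 1) none of these 3 was called (adjusted p = 0.0736 for OVOL1, 0.0671 for GRHL3 and 0.0509 for KLF4, whose difference was -0.24 on that scale).

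The summed level of the 9 tight junction genes ran from 705 to 706 CPM over the siTCF19 libraries and from 688 to 747 CPM over the siNC libraries, the lowest in siNC replicate 1 and the highest in siNC replicate 2.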
